A study of Homo sapiens with 4 samples.

Results

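Long noncoding RNAs that stay in the nucleus, with several spliced relatives, were examined by RNA-seq in OVCAR5, a human ovarian cancer line. The set was MALAT1, NEAT1, KCNQ1OT1, OIP5-AS1, TUG1, PVT1, GAS5, SNHG1, HELLPAR and MEG3, which are 10 of the 56655 gene symbols in the count tables. They were chosen by symbol with their shCtrl and shFOXK2 values already known, so their differences between the groups are given as a description without p-values. The calls of the common fit are counted once, beside the share over all genes. Cells labelled shCtrl (n = 2 libraries) carried a nontargeting hairpin and cells labelled shFOXK2 (n = 2 libraries) a hairpin directed at the forkhead transcription factor gene FOXK2. Both were made by stable lentiviral transduction of the same line, at a labelled passage between 4 and 6, and according to the methods of the study stable cells were kept by puromycin. The labels do not name the hairpin, which the legends of the study call shFOXK2-2, and the duplicates are called biological without naming separate transductions. The p-values given for other genes therefore measure the spread between these libraries.

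MALAT1 is a very abundant RNA of nuclear speckles, the bodies that hold splicing factors, and NEAT1 is the scaffold of paraspeckles, bodies built around that RNA. KCNQ1OT1 is an unspliced antisense RNA of an imprinted domain, and HELLPAR is a very long unspliced RNA. GAS5 and SNHG1 are spliced hosts whose introns carry small nucleolar RNAs (snoRNAs), while their spliced exons are exported and removed by nonsense-mediated decay during translation. The principal form of MALAT1 and the long form of NEAT1 carry no poly(A) tail. RNase P cuts their ends in front of a transfer-RNA-like structure, and an A-rich tract folded with U-rich stretches protects what is left. These libraries were made from RNA captured on oligo(dT), which binds stretches of A.

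The processed ends of MALAT1 and NEAT1 are shown because they differ from a poly(A) tail and because both RNAs were counted after oligo(dT) capture. Each line gives the 100 bases of hg38 that end with the tract, read from GENCODE v44 transcripts on the plus strand, at chr11:65506017-65506116 for MALAT1 and chr11:65445441-65445540 for NEAT1. Capitals mark the last 11 bases, which are the same in both.
MALAT1: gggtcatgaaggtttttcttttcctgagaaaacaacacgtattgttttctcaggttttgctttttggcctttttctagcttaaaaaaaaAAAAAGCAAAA
NEAT1: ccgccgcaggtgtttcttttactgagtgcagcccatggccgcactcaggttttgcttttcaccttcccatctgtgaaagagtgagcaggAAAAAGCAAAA
In MALAT1 the annotated transcript ran on for another 1957 bases, and a separate small RNA of 57 bases was annotated from the very next base. The A tract of MALAT1 was 13 bases long, the longest run of A in that transcript.

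Long internal runs of A are shown for the other unspliced members, since oligo(dT) can also meet A inside a transcript. Capitals mark the run. It lies at chr11:65440823-65440884 on the plus strand for NEAT1, at chr11:2610697-2610765 on the minus strand for KCNQ1OT1 and at chr12:102337827-102337894 on the plus strand for HELLPAR (hg38, flanks included).
NEAT1: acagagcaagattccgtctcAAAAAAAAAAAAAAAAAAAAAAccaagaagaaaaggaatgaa
KCNQ1OT1: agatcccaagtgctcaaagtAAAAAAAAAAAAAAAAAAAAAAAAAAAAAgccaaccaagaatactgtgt
HELLPAR: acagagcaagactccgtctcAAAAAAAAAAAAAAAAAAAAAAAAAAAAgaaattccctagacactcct
The 20 bases before the run were the same at 19 positions in NEAT1 and HELLPAR, and have the form that closes an Alu repeat. KCNQ1OT1 held 9 runs of 12 or more A in 91667 bases, HELLPAR held 11 in 205012 bases and NEAT1 held 3 in 22743 bases. The longest annotated OIP5-AS1 transcript held a run of 29 and that of TUG1 a run of 18. The longest run was 6 bases in PVT1 and SNHG1 and 5 in GAS5.

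The libraries held 14284005 to 21950873 counts. Levels are given as CPM, the counts relative to a common library total after TMM scaling (trimmed mean of M values), and the floor of 3 counts equalled 0.134 to 0.211 CPM. FOXK2 itself was at 80.5 and 93.4 CPM in shCtrl and at 76.4 and 59.6 CPM in shFOXK2. Both shFOXK2 values lay below both shCtrl values. The log2 fold change was -0.36 (SE 0.25, edgeR adjusted p = 0.257), so a lower level of the targeted RNA did not pass the test in these libraries. The study reported reduced FOXK2 RNA by qRT-PCR and reduced protein by western blot in OVCAR5 with shFOXK2. The epithelial markers EPCAM, KRT7, KRT8 and KRT18 were present in every library, and CDH1 fell from 18.4 to 1.12 CPM. Of the serous markers, PAX8 was at 15.7 and 20.9 CPM in shCtrl and 10.97 and 8.90 CPM in shFOXK2 and fell (-0.88, edgeR adjusted p = 0.0263). MUC16 fell from 17.8 and 9.03 CPM to 0 and 0.44 CPM (edgeR adjusted p = 2.45e-05), and WT1, SOX17 and ESR1 had 0 to 3 counts. The 6 markers of other cell types summed to between 14.8 and 21.7 CPM, with PTPRC, CD3E and DCN at 0 to 3 counts, COL1A1 between 12.6 and 15.9 CPM in every library, and PECAM1 lower in shFOXK2.

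MALAT1 was the most abundant of the members and had the largest difference in counts. It lies at chr11:65497640-65508073 on the plus strand (hg38) as a single exon. TALAM1, annotated on the opposite strand, shares 8121 exonic bases with MALAT1 and has no symbol in the counts. As the strand setting of the counting is not given, reads from TALAM1 could be counted to MALAT1. Its counts were 9376 and 4010 in shCtrl and 169962 and 181543 in shFOXK2, or 420.3, 249.8, 11950 and 9973 CPM. Both shFOXK2 libraries lay above both shCtrl libraries, and the smallest ratio between any pair of libraries was 23.7. The fitted log2 fold change was 5.03 (SE 0.36), a fold of 32.7. In bulk RNA, more cells with the RNA and more RNA per cell cannot be told apart.

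As a share of all counts, MALAT1 took 0.0427% and 0.0239% in shCtrl and 1.19% and 1.02% in shFOXK2. The 95% Wilson intervals were 0.0419% to 0.0436%, 0.0231% to 0.0246%, 1.18% to 1.20% and 1.02% to 1.03%, and they cover counting error alone. MALAT1 ranked 341 and 752 among all genes in shCtrl and 3 in both shFOXK2 libraries. It made up 6.99% and 4.54% of the counts of all annotated lncRNA genes in shCtrl, against 63.2% and 55.3% in shFOXK2. Symbols not matched to the annotation are outside this total and took 0.662% and 0.599% of counts in shCtrl and 0.866% and 1.04% in shFOXK2. Without MALAT1, lncRNA genes took 0.568% and 0.502% of counts in shCtrl and 0.692% and 0.828% in shFOXK2.

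**Figure D1:**
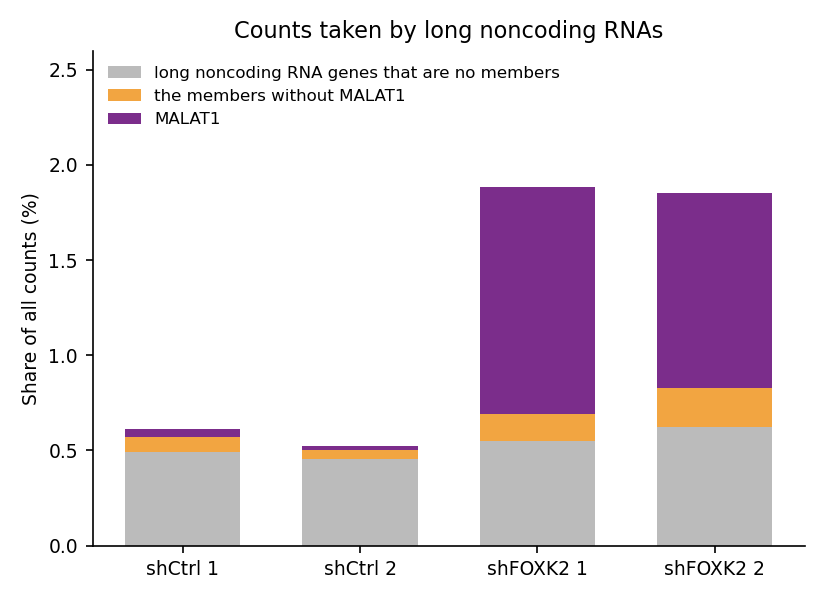
Stacked bars give the percentage of all counts taken in each library by MALAT1, by the other members, and by annotated long noncoding RNA genes that are no members. MALAT1 accounts for most of the height of both shFOXK2 bars, 1.19% and 1.02% of counts.

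NEAT1 lies 52099 bases upstream of MALAT1, at chr11:65422774-65445540 on the same strand. It was counted 5253 and 2476 times in shCtrl, against 9254 and 22907 times in shFOXK2, or 235.5, 154.2, 651 and 1258 CPM. The groups did not overlap, but the shFOXK2 libraries differed from each other by 1.93-fold. The log2 fold change was 2.29 (SE 0.33), or 4.90-fold. Counts are per gene, so the short polyadenylated form and the long form were not separated. The ratio of MALAT1 to NEAT1 counts was 1.78 and 1.62 in shCtrl and 18.4 and 7.93 in shFOXK2.

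KCNQ1OT1, at chr11:2597308-2700003 on the minus strand, is transcribed from within KCNQ1 on the opposite strand and is known for silencing neighbours on the paternal chromosome. Its counts were 236 and 73 in shCtrl and 1149 and 2478 in shFOXK2, or 10.6, 4.55, 80.8 and 136 CPM. Every shFOXK2 value was at least 7.64 times every shCtrl value. The log2 fold change was 3.83 (SE 0.40). Its host KCNQ1, a potassium channel gene, fell from 16.7 to 5.23 CPM (log2 fold change -1.68, edgeR adjusted p = 0.000581). In the same domain CDKN1C, a cell cycle inhibitor, fell (-2.09, edgeR adjusted p = 0.000103) and PHLDA2 rose (1.88, edgeR adjusted p = 0.000138). SLC22A18 at -0.58 and NAP1L4 at 0.39 did not pass the test. The strand setting of the counting is not given in the sources used here, so reads in the 121 exonic bases that KCNQ1 and KCNQ1OT1 share could go to either or neither.

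HELLPAR, a single exon of 205012 bases at chr12:102197585-102402596 on the plus strand, was close to the detection limit in shCtrl. It had 9 and 2 counts there and 214 and 372 counts in shFOXK2, or 0.403, 0.125, 15.04 and 20.4 CPM. The ratio of the scaled counts, 586 over 11, was 63.0 with a 95% interval of 35 to 127 that covers counting error alone. The fitted log2 fold change of 5.94 (SE 0.48) depends on the prior count. Its exon overlaps IGF1, a growth factor gene, over 6693 bases and PMCH over 249 bases on the other strand, and both were at 0 counts in all 4 libraries. It shares 1160 exonic bases with LINC02456 on the same strand. On the near side, NUP37 did not pass the test (0.15, edgeR adjusted p = 0.64) and PARPBP rose from 4.71 and 5.30 CPM in shCtrl to 14.6 and 13.5 CPM in shFOXK2 (1.49, edgeR adjusted p = 0.00146), a call lost at 0.20 under an offset on the A content of transcripts.

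OIP5-AS1 and TUG1 did not separate the groups. OIP5-AS1, at chr15:41283958-41322392 on the plus strand and also known as Cyrano, had 178 and 95.6 CPM in shCtrl and 115 and 134 CPM in shFOXK2. Its log2 fold change was -0.14 (SE 0.29), and both shFOXK2 values lay between the shCtrl values. TUG1, at chr22:30969245-30979395 on the plus strand, had 205 and 86.9 CPM in shCtrl and 218 and 189 CPM in shFOXK2 (log2 fold change 0.48, SE 0.33). Here shCtrl replicate 1 stood with the shFOXK2 libraries and shCtrl replicate 2 stood apart. Without shCtrl replicate 1 the TUG1 difference was 1.19, and without shCtrl replicate 2 it was -0.09. The OIP5-AS1 difference was 0.35 and -0.59 in the same order. GENCODE v44 annotates TUG1 as coding. OIP5-AS1 shares 759 exonic bases with OIP5 on the other strand (0.19, edgeR adjusted p = 0.638) and 195 with NUSAP1 on the same strand, a spindle gene that rose (1.41, edgeR adjusted p = 0.000558).

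PVT1, a long locus downstream of MYC at chr8:127794526-128187101, was counted 269 and 208 times in shCtrl, against 595 and 576 times in shFOXK2. On the CPM scale these were 12.1 and 13.0 against 41.8 and 31.6, with no overlap. The log2 fold change was 1.55 (SE 0.28), or 2.94-fold. MYC, the oncogene beside it, fell from 135 to 65.2 CPM (-1.05, edgeR adjusted p = 0.00516). GSDMC, on the other side, had 1 to 3 counts.

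GAS5, at chr1:173858559-173868882 on the minus strand, had 81.6 and 82.4 CPM in shCtrl and 175 and 131 CPM in shFOXK2. The shCtrl values were nearly equal, and both shFOXK2 values lay above them. The log2 fold change was 0.90 (SE 0.24), or 1.87-fold. GAS5-AS1 (0.77) and ZBTB37 (0.67), which overlap it on the other strand, did not pass the test. SNHG1, at chr11:62851978-62855953 on the minus strand, had 40.1 and 45.0 CPM in shCtrl and 130 and 92.5 CPM in shFOXK2. Its log2 fold change was 1.39 (SE 0.26), or 2.62-fold, again with no overlap. Its annotated exons include snoRNA sequences, so reads there could be counted to either.

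MEG3, a maternally expressed RNA of an imprinted domain on chromosome 14, was not detectable at this depth. It had 0 and 0 counts in shCtrl, which allows a share of up to 1.37e-05% and 1.79e-05%, and 1 and 3 counts in shFOXK2. RTL1, MEG8 and DIO3 of the same domain were at 0 in every library, and DLK1 and MEG9 at 0 to 3 counts. No fold is given for MEG3 and it entered no fit.

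**Figure D2:**
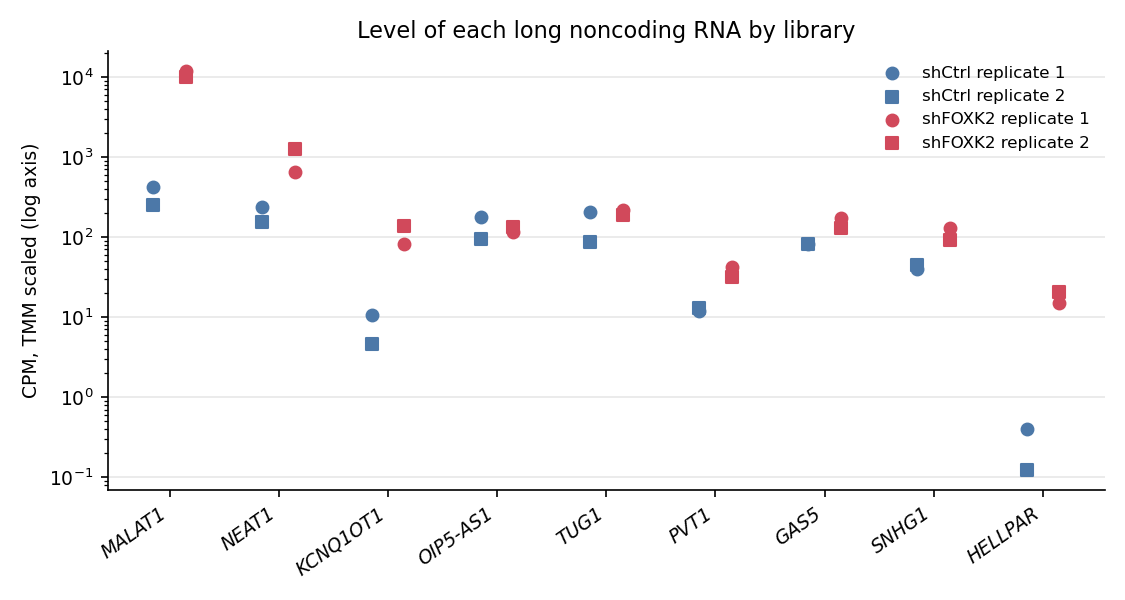
Points give CPM (TMM scaled, log axis) of each member in the 4 libraries, coloured by group and shaped by replicate. The groups are apart for MALAT1, NEAT1, KCNQ1OT1, PVT1, GAS5, SNHG1 and HELLPAR and overlap for OIP5-AS1 and TUG1. How often groups are apart over all tested genes was not counted, so nothing is read from this separation. MEG3 is not drawn because it had 0 to 3 counts.

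Of the 10 members, 9 passed the filter on low counts. Among these, 7 were higher in shFOXK2 at an adjusted p under 0.05, 0 were lower and 2 were not called, where 48.4% of all 16417 tested genes were called, 25.7% as higher and 22.7% as lower. The members were selected on this contrast, so nothing is read from the count. HELLPAR was tested only because of its shFOXK2 counts. The median log2 fold change of the 9 was 1.55, against 0.04 over all tested genes. Nearest to the threshold stood GAS5 at 0.90 among the called members and TUG1 at 0.48 among the others. The count moved with some settings. GAS5, at 0.66, was not called without shFOXK2 replicate 1. TUG1 was called without shCtrl replicate 1, and at 0.76 with an A-content offset and the replicate block together.

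**Figure D3:**
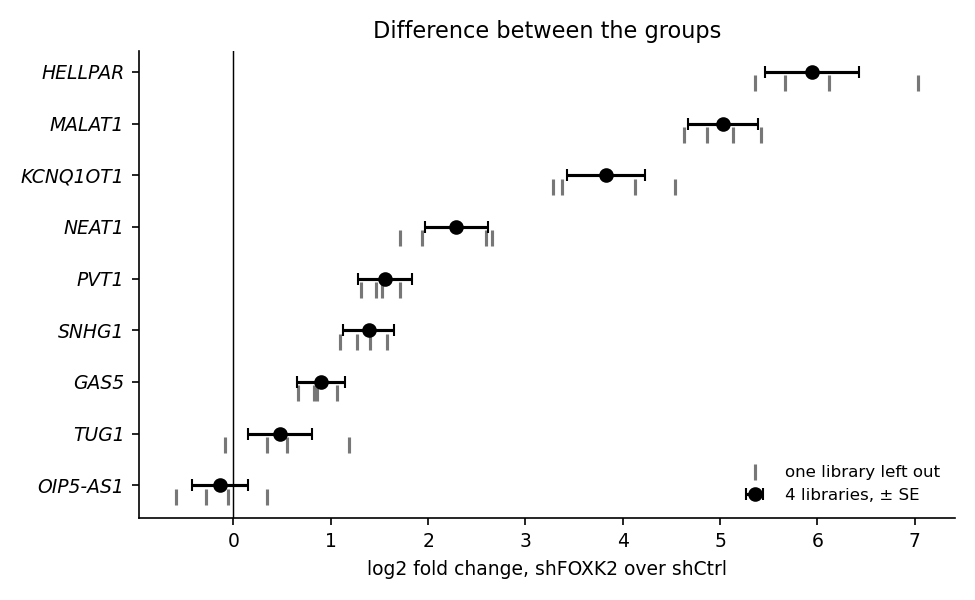
Black points give the log2 fold change of shFOXK2 over shCtrl with its SE, and grey ticks the value with each library left out in turn. HELLPAR and MALAT1 lie farthest right at 5.94 and 5.03, and the ticks of TUG1 and OIP5-AS1 fall on both sides of 0.

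Levels were compared between members as CPM per kilobase of merged exon. In shCtrl the order of the means was MALAT1 at 32.1, GAS5 at 16.6, TUG1 at 14.4, SNHG1 at 10.7, NEAT1 at 8.56, OIP5-AS1 at 6.12, PVT1 at 0.492, KCNQ1OT1 at 0.0817 and HELLPAR at 0.00129. Each neighbouring pair from GAS5 to OIP5-AS1 overlapped between libraries, and the other neighbouring pairs did not. In shFOXK2 MALAT1 stood at 1050 and NEAT1 at 41.9, followed by GAS5 at 31.0 and SNHG1 at 28.0, and these last 3 overlapped one another. TUG1 was at 20.02, OIP5-AS1 at 5.57, PVT1 at 1.44, KCNQ1OT1 at 1.17 and HELLPAR at 0.0865. Merged exons cover every annotated transcript, so a level per kilobase is low where one long form is rarely used.

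The members also differed between replicates of one group, a comparison that the choice of members did not use. In shCtrl, replicate 1 exceeded replicate 2 by 1.68-fold for MALAT1, 1.53-fold for NEAT1, 2.33-fold for KCNQ1OT1, 1.86-fold for OIP5-AS1, 2.36-fold for TUG1 and 3.24-fold for HELLPAR, the last on 9 and 2 counts. The ratio was 0.93 for PVT1, 0.99 for GAS5 and 0.89 for SNHG1. Over the 10157 tested genes whose mean log2 CPM reached 3, the median ratio was 0.958, and the 5th and 95th percentiles were 0.736 and 2.11. MALAT1, NEAT1, OIP5-AS1 and TUG1 sat above the ratio of at least 85.4% of these genes, and PVT1, GAS5 and SNHG1 lay near the middle. HELLPAR and KCNQ1OT1 reached the expression limit only through their shFOXK2 counts, so no rank is read from their ratios. The median ratio was 1.39 for 16 messenger RNAs known for detained introns, whose incompletely spliced forms wait in the nucleus, and 0.846 for 17 other snoRNA hosts. For other lists described below it was 1.12 for well-known lncRNAs, 1.05 for nuclear speckle genes and 1.01 for paraspeckle genes. It was 0.984 for nuclear RNA decay, 0.973 for nonsense-mediated decay, 0.881 for locus neighbours and 0.844 for MALAT1 end processing. These differences between lists were not tested.

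In shFOXK2, replicate 2 exceeded replicate 1 by 1.93-fold for NEAT1, 1.69-fold for KCNQ1OT1, 1.36-fold for HELLPAR and 1.16-fold for OIP5-AS1. MALAT1 at 0.835, TUG1 at 0.866, PVT1 at 0.756, GAS5 at 0.753 and SNHG1 at 0.711 went the other way. The median over all 10157 genes was 0.966, with 0.640 and 1.56 as the 5th and 95th percentiles. For the detained-intron messenger RNAs the median was 1.03 and for the other snoRNA hosts 0.92. The part of these differences between replicates in the group values was not tested.

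**Figure D4:**
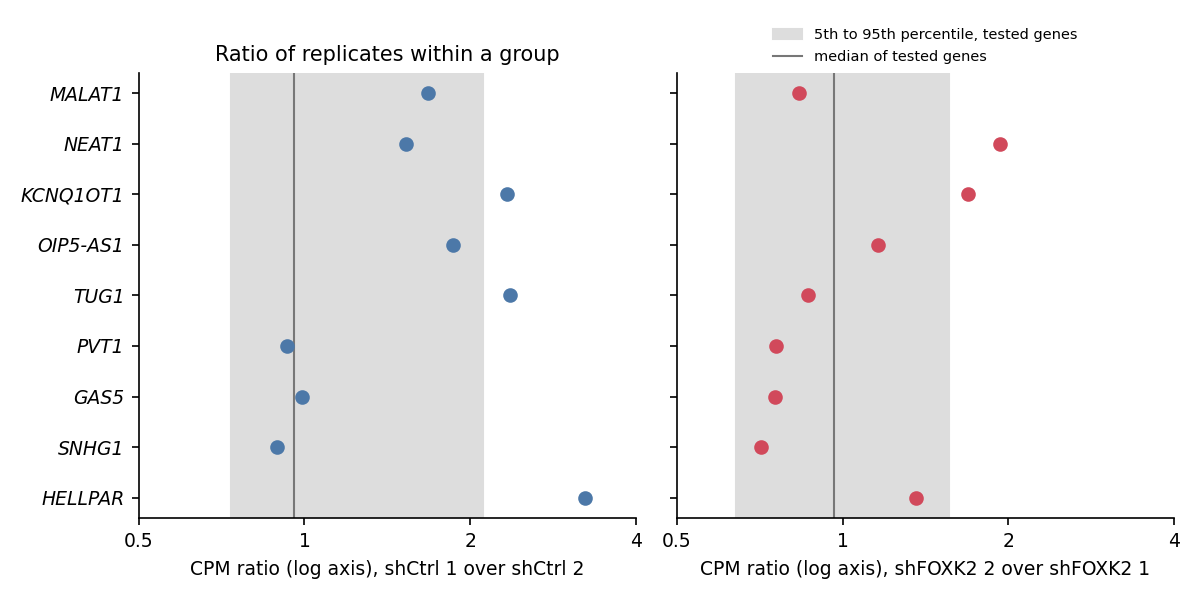
Points give the CPM ratio of the replicates within shCtrl (left) and within shFOXK2 (right) on a log axis, with the band of the 5th to 95th percentile and the median over 10157 tested genes. KCNQ1OT1, TUG1 and HELLPAR lie above the band on the left, HELLPAR on only 9 and 2 counts, and NEAT1 and KCNQ1OT1 lie above it on the right. KCNQ1OT1 and HELLPAR reached the expression limit of the compared genes only through their shFOXK2 counts.

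Other lncRNAs of the annotation were compared with the same fit. Of 723 tested lncRNA genes that are no members, 234 (32.4%) were higher in shFOXK2 and 79 (10.9%) lower, with a median log2 fold change of 0.46. Without shFOXK2 replicate 2 the median was 0.20, with 185 of 747 higher and 103 lower. Of 13102 protein-coding genes, 2683 (20.5%) were higher and 3404 (26.0%) lower, with a median of -0.08. These 2 classes were not matched for level. At a mean log2 CPM of 5 or more, 14 of 29 lncRNA genes were higher (48.3%) and 8 lower (27.6%). At that level 1205 of 6053 protein-coding genes were higher (19.9%) and 1641 lower (27.1%), so the lower shares were alike there. Among lncRNA genes whose canonical transcript held a run of 12 or more A, 29 of 80 were higher (36.2%) and 10 lower, and among those without one 205 of 643 were higher (31.9%) and 69 lower. Single-exon lncRNA genes had 24 of 88 higher (27.3%) and 13 lower. These shares are descriptions and their differences were not tested.

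The listed relatives of GAS5 and SNHG1 were mostly higher in shFOXK2. Of 24 tested snoRNA hosts, 16 rose and 2 fell, 66.7% higher against 25.7% of all genes, with a median log2 fold change of 1.11. SNHG3 rose from 19.7 to 72.3 CPM (1.87, edgeR adjusted p = 7.64e-05), SNHG19 rose (2.22) and SNHG5 rose (1.11, edgeR adjusted p = 0.00209). SNHG29, the most abundant, had 217 and 289.5 CPM in shCtrl and 168 and 142 CPM in shFOXK2 and fell (-0.71, edgeR adjusted p = 0.0269), as did SNHG16 (-0.74). Both calls were lost with the replicate block, which gave 15 rises and 0 falls, and without shCtrl replicate 2 or shFOXK2 replicate 2, and that of SNHG16 also without shFOXK2 replicate 1. SNHG32 was at -0.33 and did not pass the test. Of 17 nonsense-mediated decay factors, which act on the spliced exons of such hosts, 7 rose and 2 fell (52.9% called). Their median was 0.28, but 0.01 without shFOXK2 replicate 1, 0.09 without shCtrl replicate 2, 0.15 without shCtrl replicate 1, 0.46 without shFOXK2 replicate 2 and 0.63 under the A-content offset. UPF3B (3.94) and UPF2 (2.61) rose, SMG6, the endonuclease of the pathway, fell (-1.53), as did SMG8 (-1.57), and the helicase UPF1 at -0.61 did not pass the test.

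Of 37 other well-known lncRNAs tested, 14 rose and 8 fell (59.5% called), with a median of 0.55 that was 0.34 without shFOXK2 replicate 2. The largest of these rises among genes above the expression limit were MIR100HG, from 1.45 to 17.1 CPM (3.54), and DLEU2 (2.90). NORAD, a cytoplasmic RNA that binds Pumilio proteins, fell from 305 to 141 CPM (-1.12, edgeR adjusted p = 0.00603), a call lost at -0.63 without shCtrl replicate 1. UCA1 fell as well (-0.79, not called without shFOXK2 replicate 2), as did HCP5 (-1.74). GABPB1-AS1 rose from 38.3 to 217 CPM (2.502, edgeR adjusted p = 3.07e-05).

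Genes for the proteins of the bodies that MALAT1 and NEAT1 occupy were counted next. Of 20 nuclear speckle genes, 10 rose and 0 fell at the threshold (median 0.59), a share close to the 48.4% of all genes. Under the A-content offset 11 rose and 1 fell. PNISR rose from 30.3 to 280.3 CPM (3.21), SRSF11 from 58.9 to 491 CPM (3.06) and SRRM2, a speckle scaffold, from 605 to 1102 CPM (0.86, not called without shFOXK2 replicate 1), while the scaffold SON was at 0.51 and did not pass the test. Of 34 paraspeckle genes, 10 rose and 2 fell (median 0.25, and 0.14 without shCtrl replicate 2), 35.3% called and so under the share of all genes. By direction, 29.4% were higher and 5.88% lower, against 25.7% and 22.7% of all genes. Without shCtrl replicate 2 or shFOXK2 replicate 2 the paraspeckle list had 8 calls in place of 12. TAF15 (1.58), MATR3 (1.20), HNRNPH1 (0.98) and HNRNPA1 (0.82) rose, RBM12 (-0.98) and HNRNPF (-0.59) fell, and HNRNPK, the most abundant, was at -0.29 and did not pass the test. HNRNPA1 has many near-identical pseudogene copies, so its counts are uncertain. Its call was lost without shCtrl replicate 2 or shFOXK2 replicate 2, that of HNRNPH1 without shCtrl replicate 2, and that of HNRNPF with the replicate block, under the A-content offset and without each of shCtrl replicate 2, shFOXK2 replicate 1 and shFOXK2 replicate 2.

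Factors that make or bind the MALAT1 end showed 5 rises and 0 falls among 12 genes. The 41.7% called is under the 48.4% of all genes called in either direction. All of these calls were rises, against 25.7% of all genes called as higher, and the difference was not tested. The median was 0.58, and 0.35 without shCtrl replicate 1. With a library left out, 3 were called without shCtrl replicate 1 or shFOXK2 replicate 2 and 2 without shFOXK2 replicate 1. The RNase P subunits POP1 (2.30, edgeR adjusted p = 2.84e-05) and RPP25 (1.08, and 0.56 and not called without shFOXK2 replicate 1) rose, as did METTL16, a methyltransferase that binds the MALAT1 triple helix (1.11, edgeR adjusted p = 0.00237). ELAC2, which trims the other side of the cut, was at 0.03. Of 19 factors of nuclear RNA decay, 12 rose and 0 fell (63.2% called, median 0.97), and 1 fell under the A-content offset. Those that rose include PABPN1, the nuclear poly(A)-binding protein (1.83, edgeR adjusted p = 5.71e-05), MPHOSPH6 (2.04), ZFC3H1 (1.84) and the poly(A) polymerase PAPOLA (0.96), whose call was lost at 0.45 without shCtrl replicate 2 and at 0.43 under the A-content offset. The exosome nuclease EXOSC10 was at -0.27 and did not pass the test.

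Of the 16 messenger RNAs with detained introns, 6 rose and 1 fell (43.8% called, median 0.36). The median was 0.61 without shCtrl replicate 1 and 0.22 without shCtrl replicate 2, and without shFOXK2 replicate 2 only 4 were called. RBM25 rose from 52.2 to 661 CPM (3.66) and NKTR from 19.4 to 218 CPM (3.48), DDX17 fell (-0.67, not called with the replicate block, under the A-content offset, without shCtrl replicate 1 or without shFOXK2 replicate 2), and DDX5 at -0.57 and SF1 at 0.39 did not pass the test. Of 17 listed RNAs without a poly(A) tail, 7 were at 0 in all libraries and 4 were tested. Of these RN7SL2, the RNA of the signal recognition particle, fell from 127 to 27.9 CPM (-2.19, edgeR adjusted p = 2.78e-05), although near-identical copies make its count uncertain. RMRP (-0.60) and SNORA73B (0.25) did not pass the test. The summed level of the 17 genes was 140 and 141 CPM in shCtrl and 41.9 and 33.6 CPM in shFOXK2, of which RN7SL2 made up most. Without it the sums were 11.8 and 14.3 CPM in shCtrl and 10.8 and 8.95 CPM in shFOXK2.

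**Figure D5:**
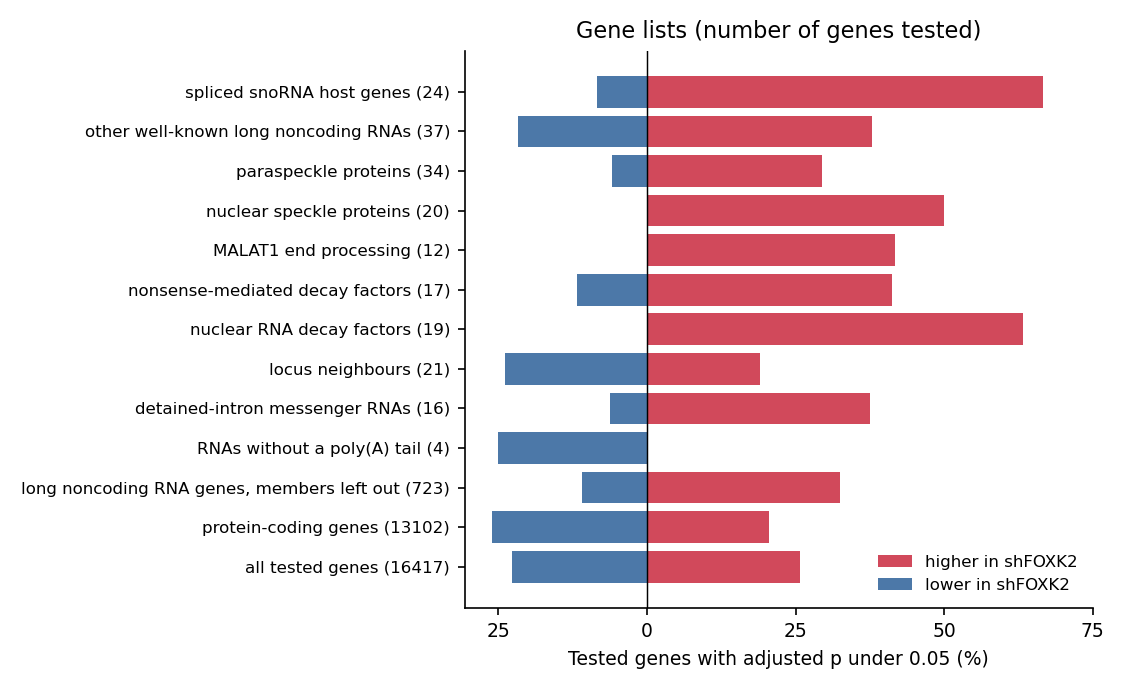
Bars give the percentage of tested genes of each list called higher (right) or lower (left) in shFOXK2 by edgeR, with the number tested in brackets. The snoRNA hosts reach 66.7% and the nuclear decay factors 63.2% on the right, against 25.7% over all tested genes.

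Neighbours of the remaining members moved both ways. Of 21 tested genes near the members, 4 rose and 5 fell (42.9% called, median 0.15). The median was -0.05 without either shCtrl library and 0.04 without shFOXK2 replicate 1, and the replicate block gave 5 rises and 4 falls. Beside MALAT1 and NEAT1, LTBP3 (-0.04) and FRMD8 (-0.35) did not pass the test. Beside OIP5-AS1, CHP1 fell from 295 to 114 CPM (-1.38, edgeR adjusted p = 0.000563). Beside TUG1, SMTN rose (1.19, and 0.73 and not called without shFOXK2 replicate 1) and MORC2 was at -0.10. Beside SNHG1, SLC3A2 was at 0.66 (edgeR adjusted p = 0.0527) and WDR74 at 0.38.

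The genes whose values were most like MALAT1 over the 4 libraries were ESF1, LRRCC1, CCDC88A, KIF20B and BRCA2, by Euclidean distance of centred log2 CPM among 6120 genes. Their distances ran from 0.408 to 0.609. Their log2 fold changes, from 4.72 to 5.81, lie near that of MALAT1 because of how the genes were chosen. All 5 are protein-coding, with 35.3% to 39.2% A in the canonical transcript, where MALAT1 has 29.0%. The A content over all 6120 compared genes was not summarised, so no shared trait is read from it here or below. Nearest to NEAT1 were PSIP1 at a distance of 0.131, MAP7D3, CIR1, PNN and GOLGB1, with 32.9% to 38.0% A, where NEAT1 has 24.2%. Nearest to GAS5 were ORAOV1 at 0.0572, NSMAF, the snoRNA host ZFAS1, SRRM2 and KNSTRN at 0.102. Their A content was 21.1% in ORAOV1, 28.7% in NSMAF, 23.1% in ZFAS1 and 24.4% in SRRM2 and was highest in KNSTRN, where GAS5 has 25.8%.

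FOXK2 binds forkhead motifs, so the promoters given by RefSeq (GRCh38.p14, 250 bases before to 50 after a start) were searched on both strands for TGTTTAC and for the shorter TGTTTA that it contains. Promoters were matched for 6 members, in 9 windows, and not for NEAT1, KCNQ1OT1, HELLPAR and PVT1. TGTTTAC was in none of the 9 windows and in 3.42% of all 35116 promoters. TGTTTA was in the windows of GAS5 and OIP5-AS1 and in 12.3% of all promoters. These 2 are shown with the match in capitals, for GAS5 at chr1:173868996-173869295 on the minus strand and for OIP5-AS1 at chr15:41283740-41284039 on the plus strand. Of the pair, GAS5 was higher in shFOXK2 and OIP5-AS1 overlapped between the groups.
GAS5: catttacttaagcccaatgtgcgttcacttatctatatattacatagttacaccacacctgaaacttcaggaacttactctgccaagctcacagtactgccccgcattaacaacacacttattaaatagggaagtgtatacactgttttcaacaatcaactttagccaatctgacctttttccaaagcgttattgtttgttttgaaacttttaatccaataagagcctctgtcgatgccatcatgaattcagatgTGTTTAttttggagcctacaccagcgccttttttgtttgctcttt
OIP5-AS1: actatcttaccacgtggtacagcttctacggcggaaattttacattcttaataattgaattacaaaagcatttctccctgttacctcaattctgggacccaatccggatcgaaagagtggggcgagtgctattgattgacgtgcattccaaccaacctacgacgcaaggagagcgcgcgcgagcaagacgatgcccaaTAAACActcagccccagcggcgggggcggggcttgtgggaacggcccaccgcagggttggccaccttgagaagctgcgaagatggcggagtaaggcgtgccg
The match is a description of these letters only.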

How the data were processed

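Polyadenylated RNA was isolated on oligo(dT), by Dynabeads per the labels and by a NEBNext module per the methods of the study, and single-end reads were aligned by the authors to hg38 (GRCh38) with STAR 2.5.2. The deposited values are raw counts per gene symbol from HTSeq, 1 table per library, without normalization. The strand setting and gene annotation are not given in the sources used here. Groups and replicate numbers came from the sample titles.

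Counts were filtered with filterByExpr, scaled by TMM and compared by the 2-sided quasi-likelihood test of edgeR 4.0.16 (R 4.3.3), adjusted by Benjamini-Hochberg over all 16417 tested genes at a threshold of 0.05. SE is the absolute log2 fold change over the square root of F. The fit was tested on simulated data. With 2 libraries a group, every p rests on variance shared between genes. Reads amplified without molecular identifiers are not independent molecules, so intervals cover counting error alone. Alternatives included DESeq2 1.42.0.

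The members and lists were chosen with earlier results of these data known. Genes named from a list were its 3 most abundant and up to 2 rises and 2 falls of largest size among called genes, provided that their mean log2 CPM reached 3. Every listed neighbour could be named, and some are not reported here. Positions, exons and composition came from GENCODE v44, matched for 65.1% of symbols (36872 of 56655), with RefSeq older symbols for 1118. TALAM1 and CCAT1 were not analysed here.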

Additional observations from a re-analysis of the deposited data

How the results depend on the processing

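The called members kept their direction under the alternatives run, while the medians of the locus neighbours (from 0.15 to -0.05) and of the RNAs without a poly(A) tail (from -0.29 to 0.05 without shCtrl replicate 2) changed sign. For the members, shifts were set against the pooled SD of log2 CPM between replicates of a group, which is widest where replicates differ most. Under other settings, 74 of the fitted values moved by less than this SD and 6 by more, all under an offset on the A content of transcripts. That offset gave 1.88 for PVT1, 1.21 for GAS5 and 1.71 for SNHG1. It shifted the genes fitted in both by a median of 0.24 (no filter shifted them by -0.10). With a library left out, 10 of 36 values moved by more than this SD. The ranges were 4.63 to 5.42 for MALAT1, 1.71 to 2.66 for NEAT1, 3.28 to 4.54 for KCNQ1OT1, -0.59 to 0.35 for OIP5-AS1 and 5.36 to 7.03 for HELLPAR. HELLPAR has no value where 10 counts were required in every library, and that filter left 182 lncRNA genes called in place of 313. Called genes for MALAT1 end processing numbered 3, in place of 5, with the DESeq2 Wald test, with no filter and with the replicate block, and 2 to 5 with a library left out. Detained-intron calls ranged from 4 to 6 in place of 7 with a library left out and came to 9 under the A-content offset, 10 with that offset and the replicate block, and 5 with the block alone, and calls among RNAs without a poly(A) tail from 1 to 2 in place of 1 with a library left out. The replicate block gave 7270 calls over all genes in place of 7940. Deviations of same-numbered libraries correlated at -0.11, a single value that cannot show whether the numbers mark a shared handling, and the labels do not say. A crossed replicate block, added after seeing the data, gave 8350. Leaving mitochondrial genes out of the total moved 28 of 40 shares of counts outside their counting interval. At this depth MEG3 and, in shCtrl, HELLPAR lay near the floor of 3 counts.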
